A study of Mus musculus with 6 samples.

Results

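The 10 genes described here are the smooth muscle contractile genes that mammary myoepithelial cells share with the vessel wall, Acta2, Actg2, Myh11, Myl9, Mylk, Cnn1, Tagln, Lmod1 and Myocd, together with Oxtr, the oxytocin receptor. They were taken by symbol from a table of read counts with 34590 gene rows, and all 10 were found and passed the filter on low counts. RNA-seq was performed on 6 libraries from 3 host mice. Gland number 4 of each mouse was engrafted on both sides, with WT.EGFP+ mammary epithelium on the left and with Adamts18-/-.EGFP+ mammary epithelium on the right. Side and genotype cannot be told apart in this layout. Adamts18 encodes a secreted protease. Both groups of donor epithelia expressed EGFP from a chicken β-actin promoter, the mouse lines were kept on a C57BL/6JOlaHsd background, and, as the methods describe these grafts, the host was a WT female whose own epithelium had been surgically removed. The host tissue around the graft was therefore WT on both sides. The age at harvest of these 3 mice is not given in the sources used here. The labels call the material FACS-sorted GFP+ MECs (mammary epithelial cells), whereas the text of the study speaks of contralateral glands.

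Myoepithelial cells form the outer, basal layer of the mammary duct and lie on the basement membrane. They contract like smooth muscle: oxytocin released from the pituitary binds its receptor, calcium rises, myosin light chain kinase becomes active, and myosin pulls on actin filaments to expel milk. Most of the same contractile proteins are made by the smooth muscle cells and pericytes of blood vessels, and in vascular smooth muscle their genes are driven by serum response factor with its coactivator myocardin. In tissue RNA these genes therefore report on both cell types, and a smaller number of contractile cells and less RNA per cell cannot be told apart in bulk libraries.

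Promoter sequence was matched by symbol in RefSeq (GRCm38.p6) for 6 of the 10 genes, Acta2, Myl9, Mylk, Cnn1, Lmod1 and Oxtr; Actg2, Myh11, Tagln and Myocd had no entry. The windows run from 250 bases before to 50 bases after the start and were searched on both strands for 2 motifs. The CArG box, which serum response factor binds, was taken in its strict form: CC, then 6 bases that are each A or T, then GG. CArG boxes with another base between CC and GG were not searched for. MCAT, which TEAD factors bind, was taken as CATTCC, or GGAATG on the other strand. The 2 motifs do not overlap in the windows shown. The 4 stretches below are shown because they are the ones in which a motif was found. Each is written 5′ to 3′ on the strand of the gene with the motif in capitals.

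Acta2, MCAT, chr19:34255469-34255564, minus strand: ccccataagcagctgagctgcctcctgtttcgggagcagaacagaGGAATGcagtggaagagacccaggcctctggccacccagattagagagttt
Myl9, CArG box, chr2:156775258-156775357, plus strand: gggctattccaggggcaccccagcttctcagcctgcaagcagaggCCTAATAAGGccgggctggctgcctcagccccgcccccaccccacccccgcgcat
Mylk, MCAT, chr16:34784747-34784842, plus strand: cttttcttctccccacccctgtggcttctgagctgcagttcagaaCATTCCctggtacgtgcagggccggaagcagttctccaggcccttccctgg
Lmod1, MCAT, chr1:135324638-135324733, plus strand: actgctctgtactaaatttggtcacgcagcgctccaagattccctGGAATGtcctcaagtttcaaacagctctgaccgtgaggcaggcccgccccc

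The first base of the motif lies 161 bases before the start in Myl9, 146 in Acta2, 158 in Mylk and 130 in Lmod1. The Mylk window lies far inside the gene, which begins at chr16:34745210 in GENCODE M21, so the start used there is not the first of the gene. A CArG box of the strict form was present in 1 of the 6 windows and in 1.63% of all 32851 windows of the same length. MCAT was present in 3 of the 6 and in 14.7% of all windows. Neither motif was present in the Cnn1 and Oxtr windows. These are matches of letters within 300 bases and do not show binding. They say nothing of sites outside the windows or of CArG boxes of a looser form inside them.

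Total counts ranged from 53875123 to 71595924 per library. Levels are given as CPM, the reads of a gene divided by the TMM-scaled total of its library and multiplied by 1000000, with the mice always in the order 1, 2, 3. Adamts18 itself was read in every gland, at 3.61, 9.92 and 6.80 CPM in WT and at 2.75, 4.87 and 3.29 CPM in Adamts18-/- glands. It was lower in the Adamts18-/- gland in all 3 mice (log2 difference -0.83), and reads remained in every library labelled Adamts18-/-. The paper describes the deleted allele as lacking the exons of the catalytic site. It also reports Adamts18 transcript, by RT-PCR, in WT fat pads that carried Adamts18-/- epithelium. The source of the remaining reads was not tested here. Markers of other cells were abundant in all libraries: the summed level of 10 adipocyte genes, led by Cfd, was 9959 to 24359 CPM, that of 10 fibroblast genes, led by Col3a1, was 9132 to 12616 CPM, and that of 24 pan-epithelial genes, led by Krt19, was 1400 to 2626 CPM. These levels go against the label of a pure epithelial sort. Summed levels of 13 skeletal muscle genes, led by Myh4, were 358, 1046 and 3386 CPM in the WT glands and 13125, 13256 and 2307 CPM in the Adamts18-/- glands, so the muscle content was far higher in the Adamts18-/- gland of mice 1 and 2 and lower in that of mouse 3. No gene in the whole table passed an adjusted p of 0.05 by the quasi-likelihood test of edgeR (smallest 0.771), and 670 passed an unadjusted p of 0.05. By adjusted p, DESeq2 called 71 genes and limma-voom called 0. Calls used the threshold that the paper applied to these glands. A gene was called lower at an unadjusted p under 0.05 with a fold change below 0.8, and higher with one above the inverse of 0.8. This threshold calls 319 genes lower in the Adamts18-/- glands, or 1.84% of the 17345 tested, and 203 genes higher, or 1.17%.

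Most of the contractile genes were lower in the Adamts18-/- gland than in the WT gland of the same mouse. Of the 10 genes, 7 were called lower (Acta2, Myh11, Myl9, Mylk, Cnn1, Tagln and Oxtr) against a background of 1.84%, and 0 were called higher against 1.17%. The median log2 difference was -0.39 over the 10 genes and 0.00065 over all genes tested. In 8 of the 10 genes the Adamts18-/- gland was the lower in all 3 mice, which held for 12.7% of all genes tested. In none of the 10 did the values of the 2 groups separate completely, since the mice differed more than the genotypes did. All Adamts18-/- values below all WT values occurred in 2.63% of all genes. The adjusted p of each of the 10 genes was 0.987 by edgeR. By limma-voom, 0 of the 10 passed an adjusted p of 0.05 (lowest 0.930). By DESeq2, Acta2 (adjusted p = 0.0201), Myh11 (0.00170), Cnn1 (6.24e-04) and Oxtr (9.97e-04) passed 0.05.

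**Figure D1:**
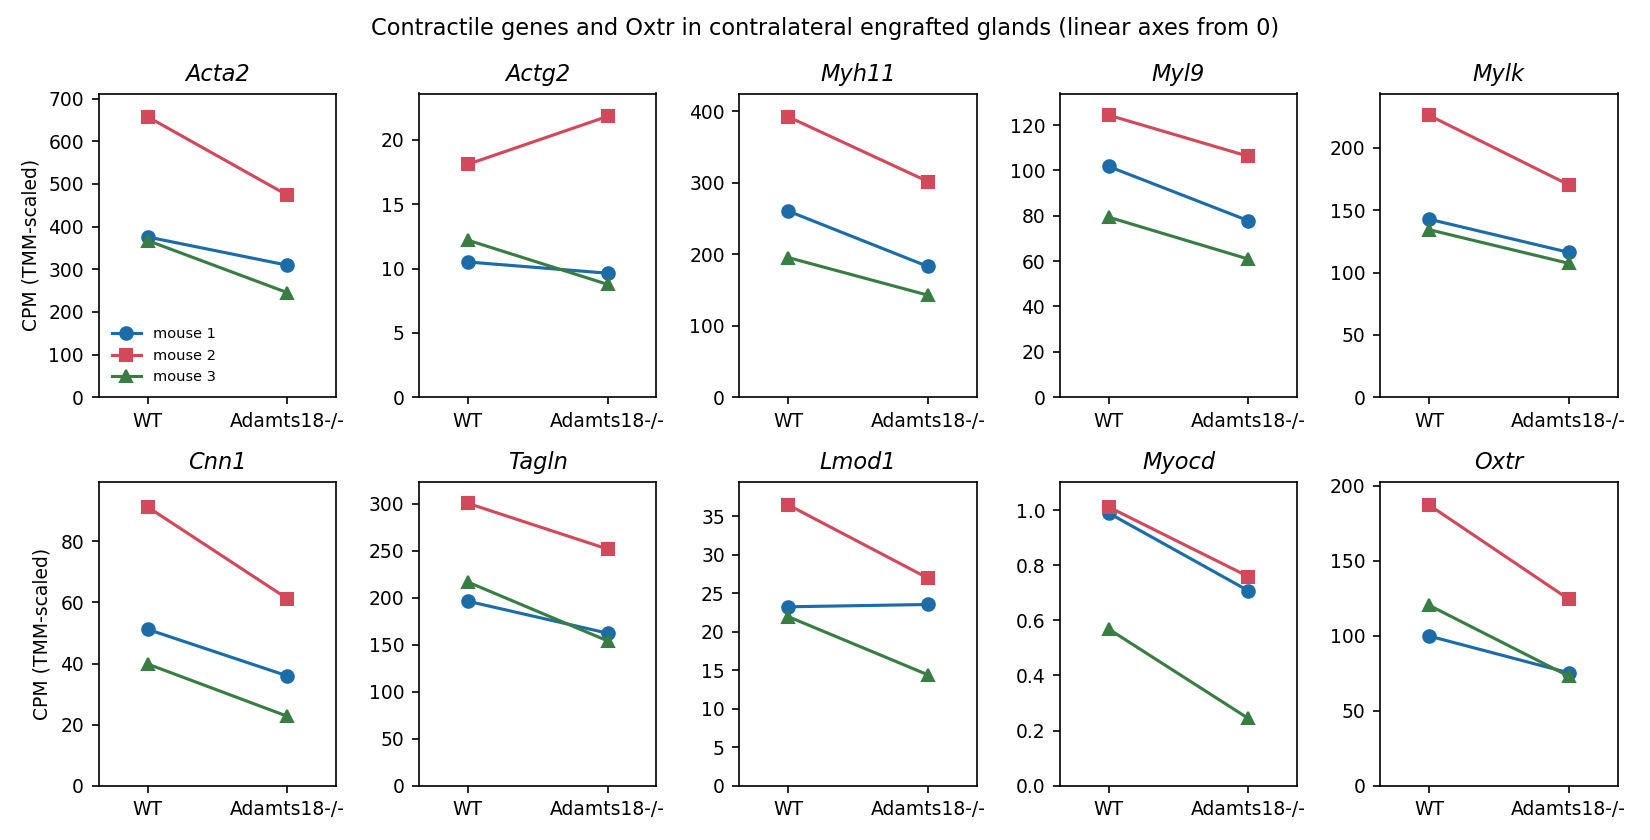
Level of each of the 10 genes (vertical axis, CPM with TMM scaling, linear from 0) in the WT and Adamts18-/- gland of each host mouse; a line joins the 2 glands of 1 mouse. Lines run downward in all 3 mice for 8 genes, while Actg2 runs upward in mouse 2 and Lmod1 is nearly flat in mouse 1; mouse 2 has the highest values throughout.

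Acta2, which encodes the α-smooth muscle actin used as the standard stain for myoepithelium, was the most abundant of the 10. It was read at 376, 657 and 367 CPM in WT glands and at 309, 474 and 245 CPM in the contralateral Adamts18-/- glands. Mouse 2 was the highest in both groups, and each Adamts18-/- gland lay below its WT partner. The means were 467 ± 165 CPM (SD, n = 3) in WT and 343 ± 118 CPM (SD, n = 3) in Adamts18-/- glands, and the fitted log2 difference was -0.45 ± 0.10 (SE; edgeR, unadjusted p = 0.00922).

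Actg2, the γ-actin of enteric smooth muscle that is also made in myoepithelium, was read at 10.5, 18.1 and 12.2 CPM in WT and at 9.64, 21.8 and 8.77 CPM in Adamts18-/- glands. It was lower in mice 1 and 3 and higher in mouse 2, and the means of 13.6 ± 3.99 and 13.4 ± 7.30 CPM (SD, n = 3) differed by less than the spread between glands (log2 difference -0.11 ± 0.17 SE; edgeR, unadjusted p = 0.555). The 2 actins are near-identical in their coding sequence to each other and to the muscle actins Acta1 and Actc1, so reads could be shared among them. Acta1, the skeletal muscle actin, moved with the muscle markers, with log2 differences of 4.96, 3.65 and -0.70 in mice 1, 2 and 3; the part of its reads in the Acta2 and Actg2 counts was not tested. Cytoplasmic Actb and Actg1 had log2 differences of 0.19 and 0.18 and were not called.

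The 3 genes of the myosin motor were lower in every mouse. Myh11, the smooth muscle myosin heavy chain, stood at 260, 392 and 195 CPM in WT and at 183, 302 and 143 CPM in Adamts18-/- glands. The mice kept the same order on both sides, with mouse 2 highest and mouse 3 lowest, and the Adamts18-/- gland held 70.2%, 76.9% and 73.1% of its WT partner (log2 difference -0.45 ± 0.08 SE; edgeR, unadjusted p = 0.00324). The genotype difference was nearly the same size in each mouse: only 0.308% of the variance of Myh11 lay outside mouse and genotype, the lowest share of the 10 genes.

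Myl9, the regulatory light chain whose phosphorylation starts contraction, was read at 102, 124 and 79.4 CPM in WT and at 77.8, 106 and 60.9 CPM in Adamts18-/- glands. Each Adamts18-/- gland was again below its partner (log2 difference -0.33 ± 0.07 SE; edgeR, unadjusted p = 0.00604). Mylk, the kinase that phosphorylates this light chain, was read at 143, 226 and 134 CPM in WT and at 116, 170 and 107 CPM in Adamts18-/- glands. Its log2 difference was -0.34 ± 0.07 (SE; edgeR, unadjusted p = 0.00562), with 75.4% to 81.4% of the WT level in the 3 mice. Exons of Mylk overlap antisense genes over 548 bases (E130310I04Rik) and 224 bases (Gm21691), or 4.87% and 1.99% of its exon length.

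Of the 3 genes whose proteins bind actin filaments, Cnn1, Tagln and Lmod1, the first showed the largest difference. Cnn1 encodes calponin, an actin-binding inhibitor of myosin activity, and was read at 51.2, 91.3 and 39.9 CPM in WT and at 36.0, 61.3 and 22.7 CPM in Adamts18-/- glands. The Adamts18-/- gland held 70.3%, 67.1% and 57.1% of the WT level in mice 1, 2 and 3, and the log2 difference of -0.63 ± 0.09 (SE; edgeR) had the lowest unadjusted p of the 10 genes, 0.00113. Tagln, encoding transgelin (SM22α), an actin cross-linking protein of smooth muscle, was read at 196, 301 and 217 CPM in WT and at 162, 252 and 154 CPM in Adamts18-/- glands. It was lower in all 3 mice (log2 difference -0.34 ± 0.09 SE; edgeR, unadjusted p = 0.0141). Exons of Tagln overlap the antisense gene Gm48529 over 1241 bases, 62.4% of its exon length, and Pcsk7 over 108 bases; the strand setting of the counting is not given in the sources used here, so their reads cannot be told apart.

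Lmod1, a leiomodin that nucleates actin filaments in smooth muscle, was not called. It was read at 23.2, 36.5 and 22.0 CPM in WT and at 23.5, 27.0 and 14.4 CPM in Adamts18-/- glands, with log2 differences of 0.018, -0.44 and -0.61 in mice 1, 2 and 3. The fitted difference was -0.34 ± 0.14 (SE; edgeR, unadjusted p = 0.0656), the same size as that of Mylk and Tagln but with a larger error. Without mouse 1 it was called lower, at -0.52.

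Myocd, the coactivator myocardin, was near the limit of what these libraries resolve. Only 69, 62 and 32 reads were counted in the WT glands and 37, 46 and 15 reads in the Adamts18-/- glands, or 0.989, 1.01 and 0.568 CPM against 0.707, 0.759 and 0.244 CPM. The Adamts18-/- gland was lower in all 3 mice, with the largest fitted log2 difference of the 10 genes and also the largest error, -0.67 ± 0.26 (SE; edgeR, unadjusted p = 0.0541). It was not called, and it was called by the same test with library size scaling (log2 difference -0.69) or among genes with at least 10 counts in every library (-0.66).

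Oxtr, the receptor through which oxytocin triggers milk ejection, was read at 99.8, 187 and 120 CPM in WT glands and at 75.3, 124 and 73.1 CPM in Adamts18-/- glands. Means were 136 ± 45.7 and 90.9 ± 29.0 CPM (SD, n = 3). The Adamts18-/- gland held 75.4%, 66.5% and 60.7% of its WT partner, and the log2 difference was -0.57 ± 0.09 (SE; edgeR, unadjusted p = 0.00155). Of the 10 genes, Oxtr had the largest share of its variance between genotypes: 37.8% of the variance of its log2 CPM lay between genotypes and 60.2% between mice, whereas the genotype took 1.31% in Actg2 and 18.5% to 26.2% in the other 8 genes. Mice took 60.2% to 88.7% in all 10.

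**Figure D2:**
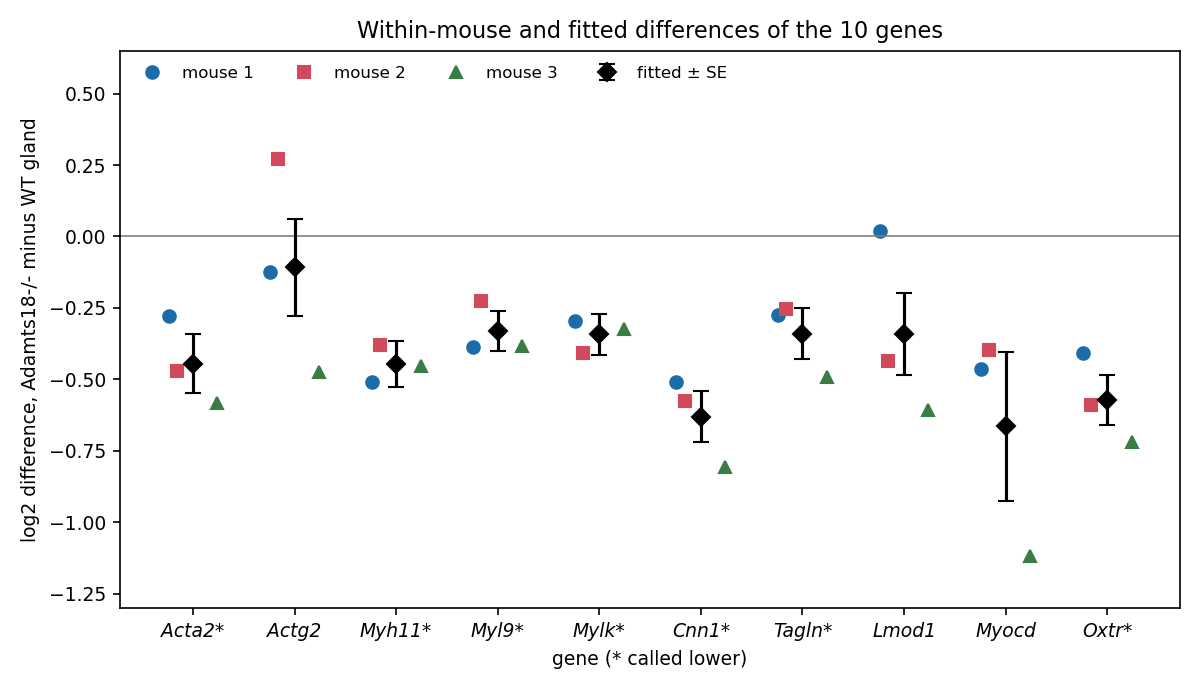
Log2 difference between the Adamts18-/- and WT gland (vertical axis) for each of the 10 genes: coloured symbols are the 3 mice, and diamonds are the fitted difference with its SE. All 3 mice lie below 0 for 8 genes, among which the scatter is widest for Myocd (-0.40 to -1.12) and narrowest for Mylk and Myh11, and Actg2 runs from -0.47 to 0.27; an asterisk marks the 7 genes called lower.

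Compared per length of exon, the WT levels spanned a wide range. Acta2 came first at 213 ± 75.2 CPM per kilobase (SD, n = 3), followed by Tagln at 120 ± 27.8 and Myl9 at 87.6 ± 19.4. Myh11 (37.2 ± 13.2), Oxtr (28.4 ± 9.54), Cnn1 (22.2 ± 9.88) and Mylk (14.9 ± 4.50) formed a middle group, and Actg2 (8.74 ± 2.56), Lmod1 (6.90 ± 2.04) and Myocd (0.133 ± 0.039) were lowest. The WT ranges of neighbours in this order overlapped for Tagln and Myl9, for Myh11 and Oxtr, for Oxtr and Cnn1, for Cnn1 and Mylk and for Actg2 and Lmod1. Within single libraries the order was steady: each gene lay above the next in 6 of 6 libraries, except Cnn1, which lay above Mylk in 5 of 6. In Adamts18-/- glands the means were 156, 95.3 and 70.3 CPM per kilobase for Acta2, Tagln and Myl9 and 19.0 for Oxtr. Exon lengths were taken over all annotated transcripts, which understates the level of a gene read mainly from a short transcript.

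The 10 genes varied together across the 6 libraries. Over their 45 pairs, the correlation of log2 CPM was lowest at 0.525, had a median of 0.901 and reached 0.991; the points are 6 libraries that share mice in pairs. Cnn1, Acta2 and Mylk had the highest median correlation with the other genes (0.961, 0.955 and 0.954), and Myocd (0.769) and Actg2 (0.815) had the lowest. The genes whose pattern over the 6 libraries was most like the mean of the contractile genes were Itga8 (r = 0.998), the integrin α8 subunit, Dnajc1 (0.996), X99384 (0.996), Ttc21b (0.996) and Slc1a1 (0.994), and 0 of these 5 were called. The genes most like Oxtr were Coq7 (0.996), Csrp1 (0.996), Pvrl1 (0.995), the nectin gene, Itga3 (0.993), the integrin α3 subunit, and Tmem200a (0.989). Of these 5, all but Coq7 were called lower, against 1.84% of all genes tested. They were picked by likeness to Oxtr in the same libraries, and Oxtr was itself called lower, so their calls are no separate support. Both sets of 5 are the highest among all other tested genes over 6 libraries, and no background correlation is given. Mice took 60.2% to 88.7% of the variance of the 10 genes, so a like pattern need not be a like genotype difference.

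Other proteins of the contractile apparatus showed calls in both directions. Of 20 further actin filament and Z-disc or dense body genes, 2 were called lower, 2 were called higher, and the median log2 difference was -0.015. Smtn, encoding smoothelin of contractile smooth muscle, was read at 94.2, 150 and 83.7 CPM in WT and at 77.6, 101 and 56.2 CPM in Adamts18-/- glands (log2 difference -0.47; edgeR, unadjusted p = 0.00358). Csrp1, a LIM protein that binds the actin cytoskeleton, differed by -0.35 (edgeR, unadjusted p = 0.0115). Synpo2, an actin-bundling protein of muscle, went the other way in all 3 mice (log2 difference 0.36; edgeR, unadjusted p = 0.00339). Des, the muscle intermediate filament desmin, was higher at 197, 203 and 62.6 CPM in Adamts18-/- against 36.1, 40.4 and 58.0 CPM in WT glands (log2 difference 1.66; edgeR, unadjusted p = 0.0291). Des is also a skeletal muscle gene. Its log2 differences of 2.45, 2.33 and 0.11 in mice 1, 2 and 3 stand beside medians of 5.02, 3.66 and -0.54 for the 13 skeletal muscle genes, of which 0 were called. Tpm1, the tropomyosin gene shared by smooth and skeletal muscle, had 2.29, 1.66 and -0.37, and was not called. The part of muscle fibres in these differences was not tested. The score of the contractile genes, taken without Oxtr, had a correlation of -0.0675 with that of the skeletal muscle genes over the 6 libraries. The most abundant genes of the group, Flna and Tns1, had log2 differences of -0.064 and -0.14 and were not called.

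Genes that set light chain phosphorylation gave no calls by edgeR. Of 12 genes, 0 were called in either direction and 0 had an unadjusted p under 0.05, with a median log2 difference of 0.027. Rhoa, a small GTPase of the contraction pathway, was nearly level (357 ± 20.4 CPM in WT and 355 ± 28.3 CPM in Adamts18-/- glands, SD, n = 3), as was Ppp1cb, a catalytic subunit of myosin phosphatase (239 ± 2.44 and 248 ± 40.1 CPM). Ppp1r14a, which encodes the phosphatase inhibitor CPI-17, was read at 2.16, 2.10 and 1.21 CPM in WT and at 1.32, 1.32 and 1.22 CPM in Adamts18-/- glands, lower in mice 1 and 2 and level in mouse 3 (log2 difference -0.46, edgeR, unadjusted p = 0.108).

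The transcriptional regulators of these genes likewise gave 0 calls of 10 by edgeR, with 1 unadjusted p under 0.05, and a median of -0.034. Srf, serum response factor itself, was read at 63.2, 68.7 and 50.7 CPM in WT and at 62.4, 71.5 and 53.2 CPM in Adamts18-/- glands (log2 difference 0.037 ± 0.065 SE; edgeR, unadjusted p = 0.602). The groups overlapped almost fully. Mkl2, a myocardin-related coactivator, differed by -0.16, Elk4, a partner of serum response factor, by 0.072, and Klf4, a repressor of smooth muscle genes, by 0.11, with opposite signs in different mice for Elk4 and Klf4.

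Beyond the receptor itself, genes of oxytocin and calcium signalling gave few calls. Of 16 genes, 15 were tested, 0 were called lower and 1, Rgs2, was called higher, with a median log2 difference of -0.018. Oxt, the hormone gene, had at most 3 reads in any library and was not tested. Gnaq and Gna11, the G protein α subunits that couple to the receptor, differed by -0.10 and -0.080, and Itpr1, the channel that releases stored calcium, by 0.0030; none was called. Rgs2, which shortens signalling by Gq, was read at 34.6, 29.5 and 28.6 CPM in WT and at 43.6, 39.2 and 39.6 CPM in Adamts18-/- glands. Each Adamts18-/- gland lay above its WT partner (log2 difference 0.40, edgeR unadjusted p = 0.00311, adjusted p = 0.987). Of all genes tested, 1.17% were called higher.

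**Figure D3:**
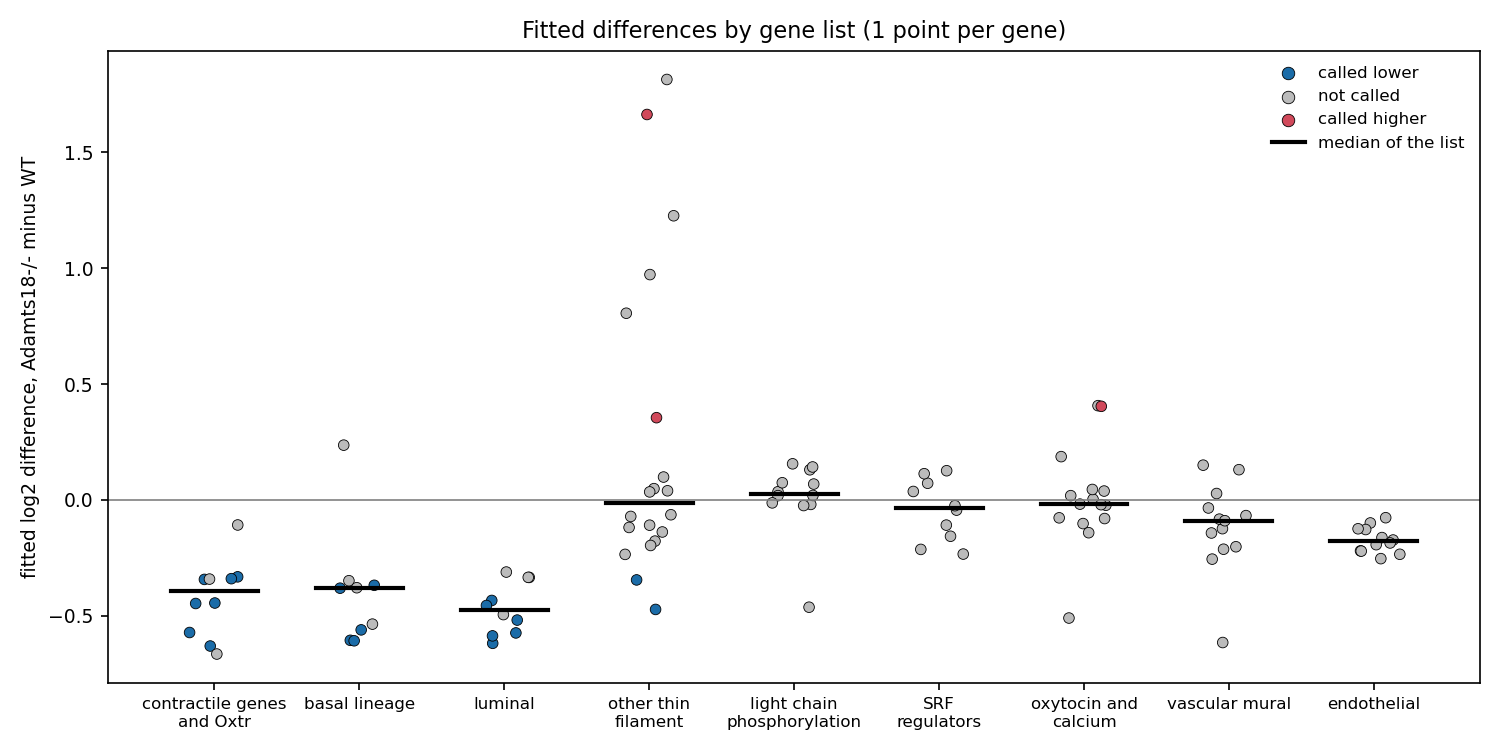
Fitted log2 difference between Adamts18-/- and WT glands (vertical axis) for every gene of 9 lists, 1 point per gene; colour marks genes called lower or higher and a bar marks the median of the list. The 10 genes (contractile genes with Oxtr), the basal and the luminal genes lie mostly below 0, with medians of -0.39, -0.38 and -0.48, while the other contraction lists centre near 0, and the high points of the thin filament list include Des at 1.66.

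Because both myoepithelium and vessels contain these genes, markers of each were set beside them. Of 9 basal lineage genes without contractile function, 5 were called lower and 0 higher, with a median log2 difference of -0.38 and summed levels of 271 to 527 CPM in WT and 202 to 345 CPM in Adamts18-/- glands. In sign, 8 of the 9 were negative and 1 was positive (0.24, not called). Of the 9, 6 were lower in all 3 mice (12.7% of all genes). Krt17 differed by -0.61, Cdh3, encoding P-cadherin, by -0.61, Jag2 by -0.38, and Trp63, the basal transcription factor p63, by -0.37, each lower in all 3 mice. Krt14 was called lower at -0.56 although it was level in mouse 1 (55.3 CPM in WT, 56.0 CPM in Adamts18-/-), and Krt5, at 64.5, 158 and 101 CPM in WT and 71.0, 88.1 and 54.4 CPM in Adamts18-/- glands, was not called (-0.54; edgeR, unadjusted p = 0.0711). In mouse 1 the Adamts18-/- gland had 110% of the WT level of Krt5 and 101% of that of Krt14 and of Lmod1, but 69.6% of Krt17, 82.4% of Acta2, 70.2% of Myh11 and 70.3% of Cnn1, so neither the keratins nor the contractile genes moved as 1 block there. Of 10 luminal genes, 6 were called lower, with a median of -0.48, and 0 were called higher.

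Vessel markers gave no calls and had smaller median differences. Of 13 genes of vascular smooth muscle and pericytes that are not contractile members, 0 were called by edgeR, 1 had an unadjusted p under 0.05 (Notch3, log2 difference -0.26) and the median was -0.090, with summed levels of 622 to 979 CPM in WT and 516 to 1053 CPM in Adamts18-/- glands. Rgs5, the most abundant of them and a pericyte marker, had means of 203 CPM in WT and 197 CPM in Adamts18-/- glands. Of 12 endothelial genes, led by Pecam1, 0 were called by edgeR and 1 had an unadjusted p under 0.05, but all 12 had a negative log2 difference, 7 were lower in all 3 mice (12.7% of all genes), and the median was -0.18. Of the 13 mural genes, 10 had a negative log2 difference and 2 were lower in all 3 mice. Leukocyte genes summed to 466 to 776 CPM in WT and 526 to 1334 CPM in Adamts18-/- glands. Across the 6 libraries the score of the contractile genes, taken without Oxtr, had a correlation of 0.918 with the basal score. With the endothelial score it was 0.906, with the vascular mural 0.843, with the adipocyte 0.736 and with the luminal 0.151. These are descriptions over 6 libraries of paired glands, and the share of the contractile reads that came from vessels was not tested.

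How far the 10 genes were lower depended on what the libraries were scaled to. With TMM scaling over all genes, 10 of 10 had a negative log2 difference. When the libraries were scaled so that 24 pan-epithelial genes were level on average, their median was 0.0071, 5 of the 10 were negative and 0 were called lower, and with scaling to the 9 basal lineage genes it was 0.0018, again with 5 negative and 0 called (edgeR; 0 with an unadjusted p under 0.05 in both). These scalings moved the median of all genes to 0.40. A scaling shifts every gene by nearly the same amount, so the 10 genes stayed below that median by 0.39 by construction. Acta2, Myh11, Cnn1, Oxtr and Myocd had negative values under both, at -0.044, -0.045, -0.23, -0.17 and -0.28 with the pan-epithelial scaling, and the other 5 genes had positive values. Scaled to the vascular mural genes, a choice made after the data were seen, 3 were called lower, Myh11 (-0.33), Cnn1 (-0.51) and Oxtr (-0.45), and the median was -0.28 against 0.12 for all genes. Over the 3 mice together, the contractile genes were lower relative to all RNA by about the amount that the epithelial genes were. Single mice did not match in this way. With TMM scaling, the median log2 differences in mice 1, 2 and 3 were -0.34, -0.40 and -0.54 for the 10 genes. They were 0.11, -0.75 and -0.50 for the pan-epithelial genes and -0.12, -0.49 and -0.61 for the basal lineage genes. Relative to the epithelial genes the difference of no single gene passed the test. With 3 mice, and epithelial medians that differed between them, this does not show that the genes were level.

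**Figure D4:**
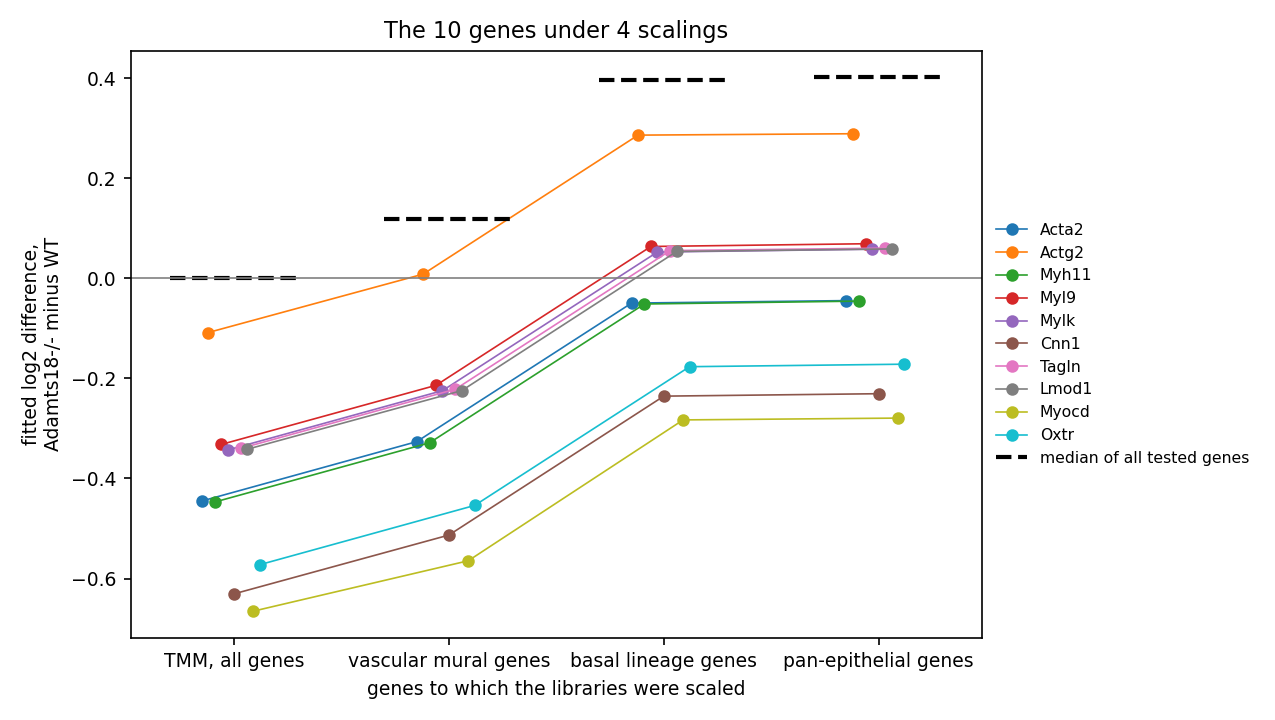
Fitted log2 difference between Adamts18-/- and WT glands (vertical axis) of each of the 10 genes when the libraries are scaled to all genes (TMM), to vascular mural, to basal lineage or to pan-epithelial genes; dashed bars mark the median of all tested genes. The 10 points keep their order and shift upward together, with medians of -0.39, -0.28, 0.0018 and 0.0071, while the dashed bar shifts to 0.40 with the last 2 scalings.

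The calls also rested on comparing the 2 glands of each mouse. Without the mouse in the model, 0 of the 10 genes were called (lowest unadjusted p = 0.116 by edgeR, for Oxtr; 0 under 0.05), while the median log2 difference stayed at -0.39. Leaving out mouse 1, 2 or 3 left 4 (Lmod1 among them), 6 or 5 genes called lower, where 2.73%, 1.22% and 1.65% of all genes tested in those fits were called lower. Acta2, Cnn1 and Oxtr were called lower in each of these fits, whereas Myl9 and Tagln dropped below the threshold without mouse 1 or mouse 3, Mylk without mouse 1 or mouse 2, and Myh11 without mouse 1. Actg2 turned positive, at 0.085, without mouse 3.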

How the data were processed

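RNA from 6 engrafted glands (3 mice, WT left, Adamts18-/- right) was profiled with single-end reads. The authors deposited raw read counts per gene symbol, 1 column per gland, without normalization; 0 columns belonged to other samples. The submitters' processing notes name bcl2fastq 2.18, TopHat2 2.0.11, featureCounts 1.6.2, edgeR and the build mm9; the annotation and strand setting are not given in the sources used here. Exon lengths came from GENCODE M21 (GRCm38) and promoters from RefSeq (GRCm38.p6).

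The quasi-likelihood test of edgeR 4.0.16 (R 4.3.3) was run on genes that passed filterByExpr, with TMM factors, the mouse as block and Benjamini-Hochberg adjustment over the 17345 genes kept. A call needed an unadjusted p under 0.05 and a fold change below 0.8 or above 1.25. Where groups have n = 3, p-values come from this model across all genes; DESeq2 1.42.0 and limma-voom (limma 3.58.1) were alternatives. CPM used the TMM factors, and log2 CPM a prior count of 2. A count of 3, taken as the limit of detection, equals 0.0419 to 0.0557 CPM and covers counting error only. The script was tested on simulated data.

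The pairing comes from the labels. After group means were removed, contralateral glands correlated across genes at 0.512, 0.505 and 0.639 in mice 1, 2 and 3. The 3 glands of a group come from separate hosts. No libraries were near-identical. The members and lists were chosen with earlier results of these data known. Besides the 10 genes, named genes were those called in the thin filament, phosphorylation, regulator, oxytocin and basal lists, the 3 most abundant of each, and Srf, Oxt, Ppp1r14a, Des, Krt5, Krt14 and Trp63, the 5 genes most like the contractile mean and the 5 most like Oxtr, and of other marker lists the most abundant gene. One of the genes so chosen is not reported here. Actin paralogs and Notch3 were named after their values were seen. Alternatives were other tests, scalings and filters, no block, each mouse left out, and other call thresholds.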

Additional observations from a re-analysis of the deposited data

How the results depend on the processing

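With no replicate block (the 2 glands of a mouse not paired) the log2 differences were -0.45 (Acta2), -0.43 (Myh11), -0.32 (Myl9), -0.35 (Mylk), -0.60 (Cnn1), -0.33 (Tagln) and -0.58 (Oxtr), none past the threshold; 0 of the 10 genes, 125 of all genes, 0 thin filament genes and 1 basal gene were called lower. Scaling to pan-epithelial genes gave -0.044 (Acta2), 0.29 (Actg2), -0.045 (Myh11), 0.069 (Myl9), 0.059 (Mylk), -0.23 (Cnn1), 0.061 (Tagln), 0.059 (Lmod1) and -0.17 (Oxtr), with 0 of the 10, 25 of all, 0 thin filament and 0 basal genes called lower and 1207 of all, 6 thin filament and 2 oxytocin genes called higher. Scaling to basal genes gave -0.049 (Acta2), 0.29 (Actg2), -0.051 (Myh11), 0.064 (Myl9), 0.053 (Mylk), -0.24 (Cnn1), 0.056 (Tagln), 0.054 (Lmod1) and -0.18 (Oxtr), with 0 of the 10, 59 of all, 0 thin filament and 0 basal genes called lower and 5856 of all, 9 thin filament, 5 phosphorylation, 4 regulator, 5 oxytocin and 1 vascular mural genes called higher. Scaling to vascular mural genes, added after the data were seen, gave -0.33 (Acta2), 0.0087 (Actg2), -0.21 (Myl9), -0.22 (Mylk) and -0.22 (Tagln), with 3 of the 10, 89 of all, 0 thin filament and 1 basal gene called lower and 489 of all and 6 thin filament genes higher. In these 3 the shift of every gene follows from the scaling itself.

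Leaving out 1 mouse at a time gave ranges of -0.53 to -0.37 (Acta2), -0.30 to 0.085 (Actg2), -0.48 to -0.42 (Myh11), -0.385 to -0.299 (Myl9), -0.37 to -0.31 (Mylk), -0.69 to -0.54 (Cnn1), -0.38 to -0.26 (Tagln), -0.52 to -0.20 (Lmod1), -0.81 to -0.44 (Myocd) and -0.66 to -0.49 (Oxtr). Called lower were 4 to 6 of the 10, 214 to 481 of all, 1 to 4 thin filament, 0 to 1 phosphorylation, 2 to 8 basal and 0 to 1 vascular mural genes; called higher were 182 to 581 of all, 1 to 7 thin filament, 0 to 1 regulator and 1 to 2 oxytocin genes. Of the basal genes, 2 were called lower without mouse 3 and 8 without mouse 1; without mouse 3, 268 genes passed an adjusted p of 0.05, Cnn1 (0.0436, edgeR) among them.

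DESeq2 called 340 and limma-voom 345 of all genes higher. With no filter, 352 of all genes were called higher, 8 basal and 1 oxytocin gene lower, and Lmod1 (-0.35) was called; 1 oxytocin gene was also called lower with upper quartile factors or library size scaling. Myocd was called with library size scaling (-0.69) and with at least 10 counts (-0.66). An adjusted p of 0.05 by edgeR left 0 calls in every list, and no fold threshold added 1 regulator and 1 vascular mural gene called lower. Where no cause is given, the cause was not tested. Depth limits Myocd, with 15 to 69 reads a library.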
